A study of Mus musculus with 2 samples.

Results

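The genes described here encode cadherins and non-clustered protocadherins. They were chosen by name alone: the symbol is Cdh or Pcdh followed by digits, Cdh5 and Cdh15 are left out, and the array annotation pairs the probe set with that gene only. The rule found 30 of 18194 genes, with 67 of 45101 probe sets. They were read in cerebrum RNA at postnatal day 14 (P14) of lag (laggard) mutant mice and of wild type mice, with 1 array for each genotype. The lag mutation is a spontaneous, recessive splice site mutation of Kif14, a kinesin gene, which arose in a line of mixed inbred descent and was crossed to C57BL/6J. The sources do not say how many mice gave each RNA sample or whether the wild type sample came from a littermate. With 1 array per genotype the spread between animals is unknown, so every ratio below describes these arrays and carries no p-value or error.

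Cadherins are calcium-dependent adhesion proteins, most of which bind their like on a neighbouring cell. Classical cadherins, of type I and type II, have a cytoplasmic tail that binds catenins and through them actin, and in the brain they help to sort neurons into nuclei and layers and to hold synapses together. Non-clustered protocadherins, most of them in the delta-1 and delta-2 groups, carry different tails, adhere more weakly, and act in axon growth and in the turnover of synapses. Each is transcribed in its own set of brain regions and cells.

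Values are MAS5 signals, linear intensities scaled by the authors, and a ratio is the log2 of the mutant over the wild type signal. Where a gene had several probe sets, the brightest by mean signal stood for it. Background was taken from 150 probe sets for genes that brain is not known to use, such as olfactory receptors, at their 95th percentile, which was 49.1 on the mutant and 48.5 on the wild type array. A signal below this level was raised to it, and the fold is then a lower bound. A gene counted as measured when at least 1 array lay above background.

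Median signals over all probe sets were 98.3 on the mutant and 105 on the wild type array. The Kif14 probe set had 0.733 in the mutant and 6.85 in the wild type, both under background, and so does not check the labels. All 8 general neuron markers were above background on both arrays, with summed signals of 91256 in the mutant and 92500 in the wild type. Of 6 excitatory cortical neuron markers 4 were higher in the mutant and 2 lower, with a median ratio of 0.39. Of 8 inhibitory neuron markers 3 were higher and 5 lower, with a median of -0.20. In both lists 0 passed 2-fold. Some markers of other brain regions differed more than the general neuron markers, in both directions. Of 9 midbrain and hindbrain markers 5 were measured, all at least 2-fold lower in the mutant, and the 9 summed to 433 in the mutant and 1250 in the wild type. The 7 cerebellum markers were all lower in the mutant, 4 of them under background there. Their median ratio was -0.19, with 4 within 1.2-fold and 2 at least 2-fold lower. They summed to 4270 in the mutant and 5276 in the wild type, mostly from Cbln1, Neurod1 and Car8. Of 5 thalamus markers 3 were higher in the mutant and 2 lower. Gbx2, with 200 in the mutant and 75.7 in the wild type, passed 2-fold. The 5 summed to 5501.5 in the mutant and 5477.7 in the wild type.

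In the median size of their log2 ratios, without sign, the measured cadherin genes were close to all measured genes, 0.17 against 0.16. Of the 30 genes, 25 were measured, 22 of them on both arrays, and 0 were at least 2-fold lower or higher in the mutant. Over all 13911 measured genes 1.78% passed this threshold, 1.02% on the lower and 0.762% on the higher side, so that few calls among 25 genes would be found at the background share. The median log2 ratio was 0.07 over the 25 and 0.01 over all measured genes. Ratios ran between -0.68 and 0.67, with an SD of 0.31 across the 25, against 0.36 across all measured genes. Of the 22 above background on both arrays, 17 (77.3%) differed by less than 1.2-fold, against 71.1% of all genes above background on both. By sign alone 16 of the 25 (64%) lay above 0, against 52.0% of all measured genes. Cdh19, Cdh26 and Pcdh1, above background on the mutant array alone, could only lie above 0. Of the 22 above background on both arrays 13 (59.1%) lay above 0, against 51.5% of all such genes.

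**Figure D1:**
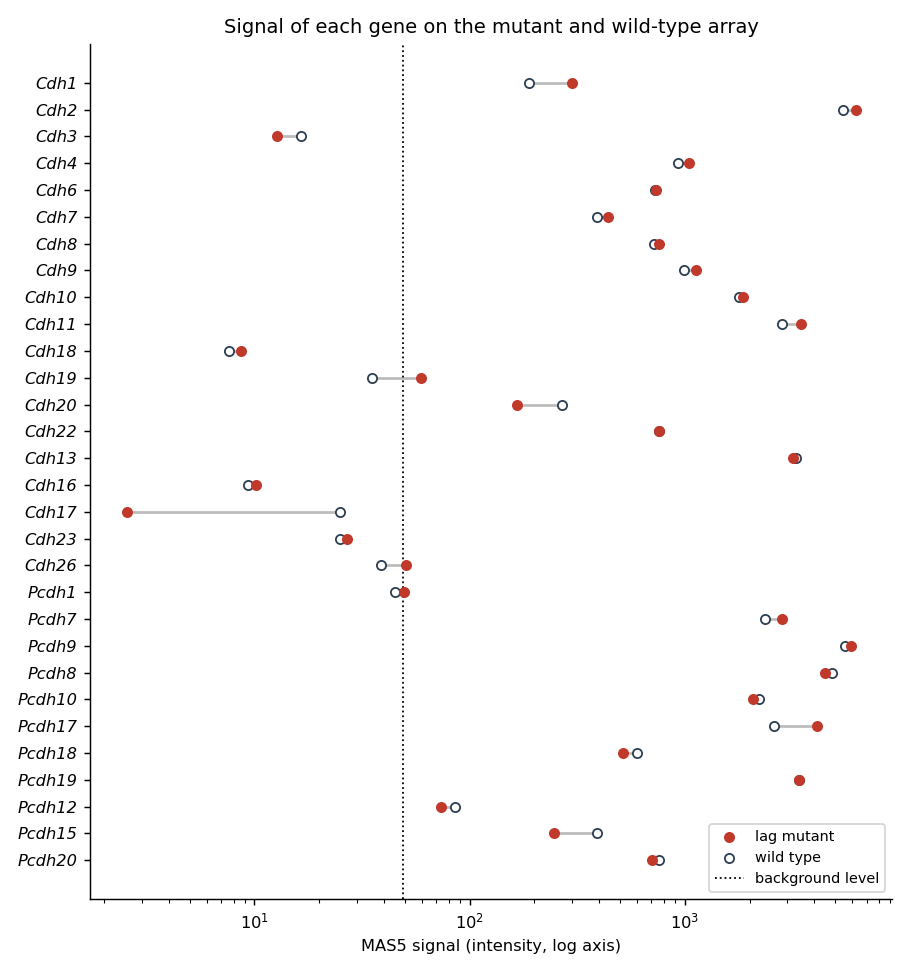
MAS5 signal (log axis) of each of the 30 genes, by its brightest probe set, on the mutant array (filled) and the wild type array (open). The dotted line is the background level of 49.1 on the mutant array, close to the 48.5 of the wild type array. For most genes the points nearly coincide, and 5 genes lie under background on both arrays. Heights of different genes are not comparable.

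**Figure D2:**
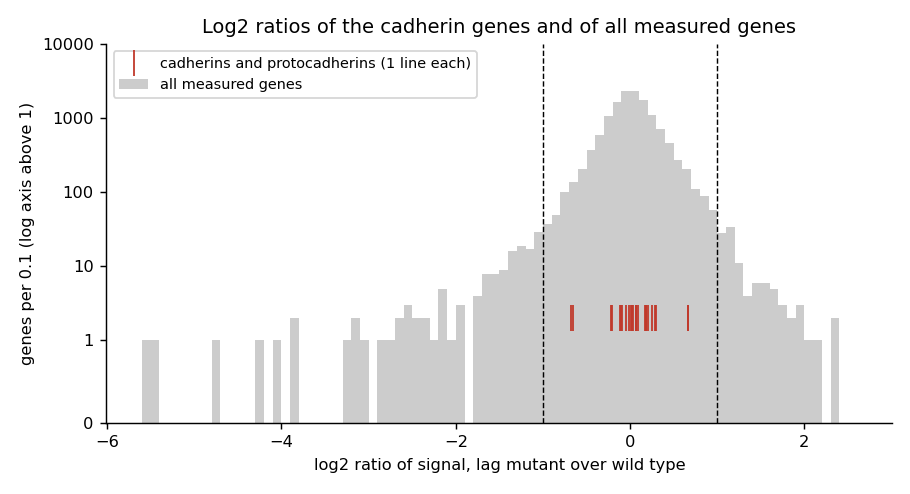
Distribution of log2 ratios, mutant over wild type, in 13911 measured genes (grey, number of genes on a log axis), with the 25 measured cadherin and protocadherin genes as red lines. Dashed lines mark 2-fold, and all red lines lie between -0.68 and 0.67.

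By structural group, the 3 measured type I cadherins and the 3 delta-1 protocadherins that the rule took all had ratios above 0. Their medians were 0.20 and 0.09. The 3 protocadherins outside the delta groups all had ratios below 0, with a median of -0.21. Pcdh1, of the delta-1 group, was above background on the mutant array alone, so its ratio could only be positive. The signs in these groups were the same under quantile normalization and after scaling to the same median signal, but not with every probe set. With the probe set of largest decrease Cdh4 (-0.09) and Pcdh9 (-0.29) lay below 0, and with that of largest increase Pcdh20 (0.08) lay above it, so that each group then held both signs. Of 9 type II cadherins 7 lay above 0, with 8 under either other scaling. Of 5 delta-2 protocadherins 2 lay above 0, with 1 under quantile normalization.

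Among type I cadherins, Cdh1, the cadherin of epithelia, stood farthest from 0. Its single probe set had a signal of 299 in the mutant and 188 in the wild type, 1.59-fold higher. Cdh2, or N-cadherin, which joins neural progenitors to each other and is found at many synapses, had 6246 in the mutant and 5427 in the wild type. Its second probe set had 2081 in the mutant and 1937 in the wild type, so that both gave small positive ratios, 0.20 and 0.10. Cdh4, or R-cadherin, had 1041 in the mutant and 926 in the wild type, but its other probe set above background had 821 in the mutant and 872 in the wild type. The direction for Cdh4 thus differed between probe sets. Cdh3, or P-cadherin, lay under background on both arrays.

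Type II cadherins, many of which mark particular areas and nuclei of the brain, made up 10 of the genes on the array, and 9 were measured. Cdh20 was the farthest from 0, with 167 in the mutant and 267 in the wild type, 1.60-fold lower by its single probe set. Cdh11, a cadherin of mesenchyme that is also made in brain, had 3461 in the mutant and 2844 in the wild type. Its second probe set had 965 in the mutant and 774 in the wild type, and the ratios, 0.28 and 0.32, were close to each other. Cdh9, which acts at mossy fibre synapses of the mouse hippocampus, had 1128 in the mutant and 991 in the wild type. Cdh6, a marker of areas of the developing cortex, had 738 in the mutant and 728 in the wild type. Cdh22 had 757 in the mutant and 761 in the wild type. For Cdh6 and Cdh22 the arrays were nearly equal.

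Other type II genes had probe sets that differed from each other. Cdh8, which marks particular cortical areas, had 756 in the mutant and 718 in the wild type by its brightest probe set. A second had 705 in the mutant and 542 in the wild type, and another 441 in the mutant and 249 in the wild type. All of them lay above 0, but the ratio ran between 0.07 and 0.83. Cdh10 had 1870 in the mutant and 1782 in the wild type by its brightest probe set, close to equal. Its next probe set had 230 in the mutant and 431 in the wild type, and another 152 in the mutant and 195 in the wild type. Those dimmer probe sets were thus both lower in the mutant, with ratios of -0.90 and -0.36.

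Cdh7 had the widest spread between probe sets. The brightest had 442 in the mutant and 389 in the wild type, and the next 94.5 in the mutant and 110 in the wild type. The dimmest had 47.5 in the mutant, under background, and 120 in the wild type, at least 2.45-fold lower. It was the 1 probe set of the 53 measured (1.89%) that passed 2-fold, against 2.16% of all 25277 measured probe sets, 1.36% on the lower and 0.799% on the higher side. Cdh19, known from precursors of Schwann cells, had 59.7 in the mutant and 35.1, under background, in the wild type, at least 1.23-fold higher. Cdh18 lay under background on both arrays.

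Cdh7, Cdh19 and Cdh20 lie on the chromosome that carries Kif14. In the RefSeq annotation of GRCm38.p6, Cdh7 and Cdh19 are neighbours, and 153 protein-coding genes lie between Cdh7 and Kif14, 152 between Cdh19 and Kif14, and 175 between Cdh20 and Kif14. By the brightest probe sets the ratio was 0.18 for Cdh7, 0.30 for Cdh19 and -0.68 for Cdh20. The dimmer probe sets of Cdh7 had ratios of -0.22 and -1.29, so that its direction depended on the probe set. Cdh19 was above background on the mutant array alone, so its ratio could only be positive.

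Of the atypical cadherins, Cdh13, or T-cadherin, which is held in the membrane by a lipid anchor and has no catenin-binding tail, was well above background. Its brightest probe set had 3188 in the mutant and 3298 in the wild type, and the next 2633 in the mutant and 2597 in the wild type. A dimmer one had 699 in the mutant and 389 in the wild type, 1.80-fold higher. The brighter probe sets thus gave near equality and the dimmer one did not. Cdh26 had 50.9 in the mutant and 38.9, under background, in the wild type. Cdh16, a kidney cadherin, Cdh17, an intestinal one, and Cdh23, which forms tip links of hair cells in the inner ear, lay under background on both arrays.

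**Figure D3:**
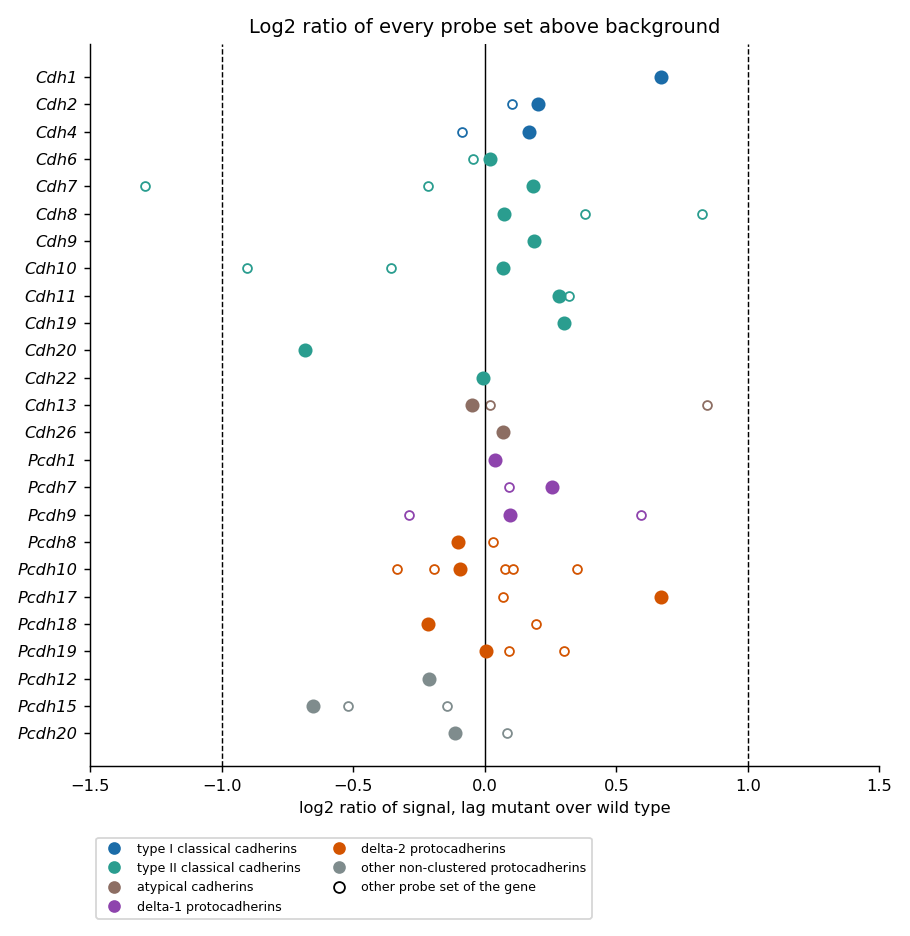
The log2 ratio, mutant over wild type, of the 53 measured probe sets, by gene and coloured by structural group. Filled points are the probe sets that stand for a gene, open points its other probe sets, and dashed lines mark 2-fold. Only 1 point, of Cdh7 at -1.29, lies outside the dashed lines, and probe sets of Cdh8, Cdh10 and Cdh13 are widely spread.

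All 11 non-clustered protocadherins taken by the naming rule were measured. Pcdh11x, whose symbol ends in a letter, was not taken and was counted elsewhere in the cadherin superfamily. It had 2705 in the mutant and 2556 in the wild type. Of the delta-1 group, Pcdh7 had 2831 in the mutant and 2370 in the wild type, and its other probe set above background had 84.5 in the mutant and 79.2 in the wild type. Pcdh9 had 5918 in the mutant and 5541 in the wild type by its brightest probe set. A second had 2231 in the mutant and 2724 in the wild type, and another 109 in the mutant and 71.9 in the wild type, 1.51-fold higher. The probe sets of Pcdh9 thus gave no common direction. Pcdh1 had 49.7 in the mutant, at the background level, and 45.2, under it, in the wild type.

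In the delta-2 group Pcdh17, which acts at synapses of circuits that link cortex and basal ganglia, stood farthest from 0. One probe set had 4125 in the mutant and 2595 in the wild type, 1.59-fold higher. The other had 3373 in the mutant and 3218 in the wild type, 1.05-fold higher. Their mean ratio was 0.37, so that the place of Pcdh17 among the genes farthest from 0 rested on 1 of its probe sets. Pcdh8, or arcadlin, which neuronal activity induces and which draws N-cadherin off the synaptic membrane, had 4482 in the mutant and 4813 in the wild type. Its second probe set had 2996 in the mutant and 2929 in the wild type, nearly equal.

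Pcdh10, needed for axon growth through the ventral forebrain in mice, had 2083 in the mutant and 2223 in the wild type, and its 6 probe sets ran between -0.33 and 0.35. Pcdh19, an X-linked gene of human epilepsy whose protein forms complexes with N-cadherin, had 3409 in the mutant and 3397 in the wild type. Its dimmest probe set had 518 in the mutant and 420 in the wild type, 1.23-fold higher. Pcdh18 had 517 in the mutant and 601 in the wild type, while its other probe set had 151 in the mutant and 132 in the wild type. By their brightest probe sets, the 4 genes of the delta-2 group other than Pcdh17 differed by less than 1.2-fold, while dimmer probe sets of Pcdh10 and Pcdh19 passed 1.2-fold.

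Of the other protocadherins, Pcdh15 stood farthest from 0. It forms tip links with Cdh23 in hair cells, and in brain its transcripts are abundant in oligodendrocyte precursors. Its brightest probe set had 248 in the mutant and 390 in the wild type, 1.57-fold lower. A second had 63.4 in the mutant and 90.8 in the wild type, and another 62.0 in the mutant and 68.4 in the wild type. All of them were thus lower in the mutant, with ratios between -0.65 and -0.14. Pcdh12, an endothelial protocadherin, had 73.7 in the mutant and 85.3 in the wild type. Pcdh20 had 705 in the mutant and 763 in the wild type, while its second probe set had 281 in the mutant and 265 in the wild type.

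At a threshold of 1.5-fold, Cdh20 and Pcdh15 were lower in the mutant and Cdh1 and Pcdh17 higher, which is 16% of the 25 genes. With 50 added to every signal Pcdh17 alone passed, and Pcdh15 also fell short of 1.5-fold after scaling to the same median. Over all measured genes 7.86% passed 1.5-fold, 3.54% on the lower and 4.32% on the higher side. Of the 53 measured probe sets 4 were lower and 5 higher by at least 1.5-fold (17.0% in all), against 9.71% of all measured probe sets, 5.04% on the lower and 4.66% on the higher side. These counts are small, and the difference in shares was not tested. Among all measured genes, 5.38% lay at least as far from 0 as Cdh20 and 6.05% at least as far as Pcdh15. Of the 17 genes with several measured probe sets, 7 (41.2%) had all of them on 1 side of 0, against 44.6% of 6593 such genes on the whole array. The range of ratios within a gene had a median of 0.41 over the 17 and 0.34 over the 6593. The median size of the 25 ratios was 0.17, against 0.16 over all measured genes.

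Markers of some cell types differed between the arrays. All 5 oligodendrocyte precursor markers were lower in the mutant, 2 of them at least 2-fold, none under background. They summed to 5650 in the mutant and 12276 in the wild type. Most of that difference came from Olig1, with 3267 in the mutant and 6031 in the wild type, and Gpr17, with 123 and 2259. Pdgfra, the receptor that defines precursors, had 1481 in the mutant and 2508 in the wild type, a ratio of -0.76. In whole brain at earlier ages, the authors found Pdgfra and Olig2 mRNA not noticeably different by real-time PCR. All 9 oligodendrocyte and myelin markers were at least 2-fold lower, with Mobp and Mog under background in the mutant, and summed to 2518 in the mutant and 35242 in the wild type. The part of these cells in the lower Pcdh15 and Cdh20 signals was not tested. In bulk RNA, fewer cells of a type and less RNA per cell cannot be told apart.

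All 9 meningeal fibroblast markers were higher in the mutant, 1 of them, Lum, at least 2-fold, none under background, with summed signals of 16015 in the mutant and 10988 in the wild type. Lum, a matrix protein, had 526 in the mutant and 259 in the wild type. Among 7 choroid plexus epithelium markers 4 were higher in the mutant and 3 lower. Folr1, with 474 in the mutant and 206 in the wild type, passed 2-fold. The 7 summed to 22560 in the mutant and 24086 in the wild type. The part of meningeal, choroid plexus or other cells in the higher Cdh1 and Cdh11 signals was not tested. Of 7 endothelial markers 6 were lower in the mutant, none by 2-fold or under background, and the 7 summed to 3491 in the mutant and 4178 in the wild type. Their median ratio was -0.28, beside -0.21 for Pcdh12, and their part in it was not tested.

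Genes for the catenins, which link classical cadherins to actin, were close to equal on both arrays by their brightest probe sets, but not by every probe set. All 8 measured lay within 1.2-fold by their brightest probe sets, with a median ratio of -0.02. Ctnnb1, or beta-catenin, had 13397 in the mutant and 14501 in the wild type. Jup, or plakoglobin, had 284 in the mutant and 241 in the wild type, and Ctnna2, the alpha-catenin of neurons, 3259 in the mutant and 2861 in the wild type. Ctnna1, the alpha-catenin of most other cells, had 2110 in the mutant and 2442 in the wild type, and its other probe set above background had 1258 in the mutant and 1777 in the wild type. The ratios of Ctnna1, -0.21 and -0.50, had the same sign. Ctnnd2 had a ratio of -0.01 by its brightest probe set. Its second had 2659 in the mutant and 2019 in the wild type, a ratio of 0.40.

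Of 9 other junction proteins 0 differed by at least 2-fold by their brightest probe sets, with a median of -0.08. A dimmer probe set of Nectin3 had 95.4 in the mutant and 212 in the wild type, a ratio of -1.15. The brightest of Nectin3 gave -0.08, and its others lay on both sides of 0. Magi1, a scaffold protein, had 747 in the mutant and 1181 in the wild type, but 2 of its 5 probe sets were higher in the mutant. Afdn, or afadin, which links nectins to actin, had 1341 in the mutant and 1593 in the wild type. Vcl, or vinculin, had 1029 in the mutant and 1179 in the wild type.

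Of 5 measured genes for proteases that cut cadherins, 0 passed 2-fold, and the median ratio was 0.28, that of Psen2. Psen2 had 653 in the mutant and 539 in the wild type. Its other probe set had 46.7, under background, in the mutant and 57.5 in the wild type. Adam10, which sheds the outer part of N-cadherin, had 4478 in the mutant and 3491 in the wild type by its brightest probe set, and 817 in the mutant and 768 in the wild type by the next. Its dimmest measured probe set had 21.1, under background, in the mutant and 59.3 in the wild type. The probe sets of Adam10 thus differed in direction. Ncstn and Psenen encode subunits of gamma-secretase. Ncstn had 140 in the mutant and 110 in the wild type, while its other probe set had 28.0, under background, in the mutant and 55.2 in the wild type. Psenen had 2361 in the mutant and 2951 in the wild type, so that the direction of Ncstn relative to Psenen depended on the probe set.

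Of 7 genes for effectors of delta protocadherins 0 passed 2-fold, with a median of 0.01. Taok2, the kinase that binds Pcdh8, had 79.5 in the mutant and 111 in the wild type, while its other probe sets were higher in the mutant. Abi2 and Cyfip2 belong to the WAVE complex, which drives actin assembly. Abi2 had 6863 in the mutant and 6188 in the wild type, and Cyfip2 had 5127 in the mutant and 4660 in the wild type.

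Elsewhere in the cadherin superfamily 1 of 16 measured genes, Cdhr1, differed by at least 2-fold, and 11 of the 16 had ratios below 0, with a median of -0.11. Cdhr1, a cadherin of photoreceptors and of output neurons of the olfactory bulb, had 487 in the mutant and 1318 in the wild type, 2.71-fold lower by its single probe set. Dchs1 and Fat1 are giant cadherins that act in tissue polarity. Dchs1 had 200.2 in the mutant and 289 in the wild type, and Fat1 had 1780 in the mutant and 2451 in the wild type. Fat2, which cerebellar granule cells make, had 9.96 in the mutant, under background, and 86.4 in the wild type, at least 1.76-fold lower. Cdh5, the endothelial cadherin, had 220 in the mutant and 265 in the wild type. Cdh15, which cerebellar granule cells also make, had 269 in the mutant and 351 in the wild type.

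**Figure D4:**
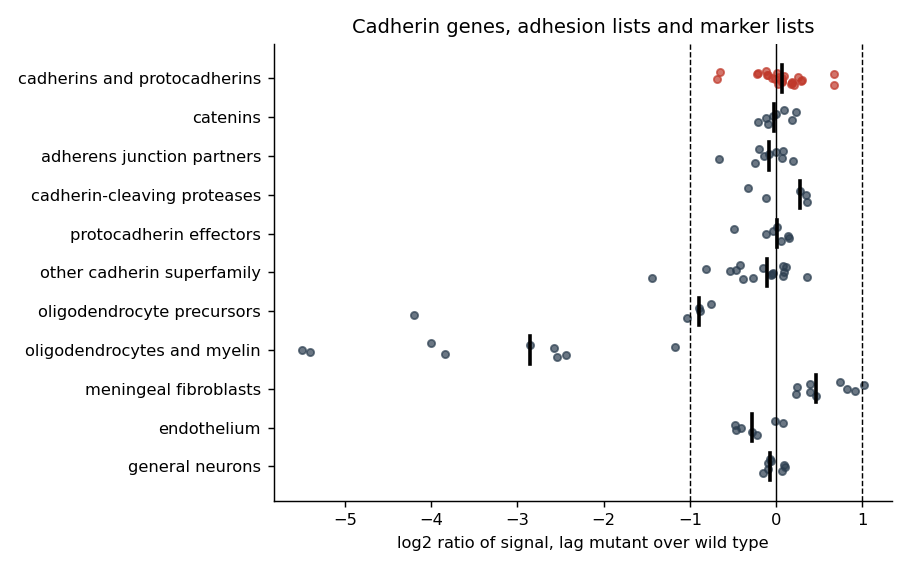
Log2 ratio, mutant over wild type, of the measured genes of each list (points), with the list's median (black bar) and dashed lines at 2-fold. The 25 cadherin and protocadherin genes (red) and the catenins lie around 0, with medians of 0.07 and -0.02, while all 9 oligodendrocyte and myelin markers lie beyond 2-fold on the lower side.

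Across the settings tried, 13 of the 25 genes kept 1 sign, 10 of them positive and 3, Cdh20, Pcdh12 and Pcdh15, negative, and 12 had both signs. Of the 13, 7 had a single measured probe set, so that the choice of probe set could not turn their sign. The other 6 were among the 17 genes with several. Cdh19, Cdh26 and Pcdh1, among the 10, were above background on the mutant array alone, so the filter fixed their sign as reported. The share of all measured genes that kept 1 sign was not computed.

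**Figure D5:**
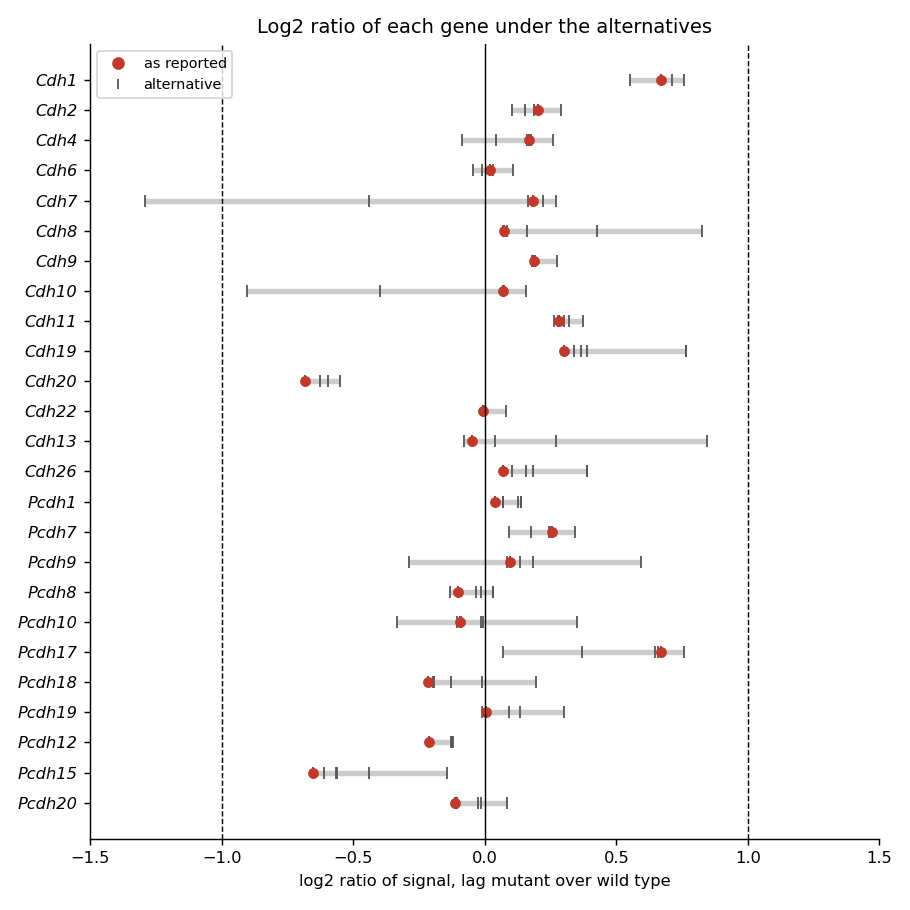
Log2 ratio, mutant over wild type, of each of the 25 measured genes as reported (red) and under 11 alternatives (ticks, spanned by a grey bar), with dashed lines at 2-fold. Cdh1 and Cdh20 stay on 1 side of 0, while the bars of Cdh7, Cdh10 and Cdh13 cross it, and that of Cdh7 reaches -1.29.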

How the data were processed

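Cerebrum RNA was hybridised to an Affymetrix mouse genome array, 1 array per genotype. The authors calculated signals with MAS5, globally scaled and at its default settings. The deposited intensity values are linear, without detection calls, and the target of the scaling was not found in the methods or labels. The submitters' processing notes name MAS5 as well. Of 45101 probe sets the annotation gave 1 gene to 34958, several genes to 932 and no gene to 9211, and only the 34958 were used. Of these, 34754 matched the RefSeq table of GRCm38.p6, used for current symbols of the adhesion and marker lists and for neighbours of Kif14. All 30 genes are reported. From each adhesion list the rule named genes past 2-fold and the 3 largest ratios among genes above background on both arrays. Ctnnb1, Ctnnd2, Nectin3, Psen2, Fat2, Pcdh11x, Cdh5 and Cdh15 were picked after their values were seen. So were the named markers, such as Pdgfra, Olig1, Gpr17, Lum, Folr1, Gbx2, Cbln1, Neurod1 and Car8. Genes and lists were chosen with earlier results of these data known. The calculation was tested on simulated data. Alternatives changed the probe set, the background level, the treatment of low signals, the normalization, the symbols and the fold. Python 3.11.15, numpy 2.4.6, pandas 2.3.3, scipy 1.17.1 and matplotlib 3.10.9 were used. Having 2 arrays limits the precision.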

Additional observations from a re-analysis of the deposited data

How the results depend on the processing

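No paired analysis was possible because there is 1 sample of either genotype. Under 11 alternatives to the probe set, background, normalization and symbols, no gene was at least 2-fold higher. At 1.5-fold, with all else as reported, 2 were lower and 2 higher; over the alternatives 0 to 4 were lower and 1 to 5 higher, with 0 and 1 when 50 was added to every signal, 4 and 1 with the largest decrease and 1 and 5 with the largest increase. Taking for each gene the probe set with the largest decrease, 1 was at least 2-fold lower, Cdh7, and without a background level, over all 30 genes, 1 was, Cdh17, not among the 25, whose signals of 2.55 in the mutant and 25.1 in the wild type are both under background. The 1.5-fold share over all measured genes was computed in the reported setting alone. The median ratio of the cadherin genes was 0.19 when the probe set with the largest increase was taken and between -0.04 and 0.16 under the others. The median over all measured genes moved as well. It was 0.10 with the largest increase, 0.10 with scaling to the same median and -0.07 with the largest decrease. Over all measured genes the call of 142 lower and 106 higher became 126 and 141 with quantile normalization and 114 and 159 with scaling to the same median, 300 and 78 with the largest decrease, 109 and 183 with the largest increase, 166 and 182 with background at the 90th percentile, 74 and 31 at the 99th, 93 and 49 with 50 added to every signal, and 980 and 1232 without a background level, lower given before higher. Of the 25, 8 genes, Cdh1 and Cdh20 among them, have a single measured probe set and no second measurement here. Cdh19, Cdh26 and Pcdh1 were above background on the mutant array alone, so their ratios are bounds.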
